A study of Gossypium hirsutum with 24 samples.

Results

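The genes described here are 5 cytoskeletal genes of upland cotton, Gossypium hirsutum: the alpha-tubulin ATub3 (also TUA6 and TubA1, LOC107886968), the beta-tubulins BTub1 (also BTub2, LOC107962977) and BTub4 (LOC107936697), and the kinesins KCH1 (LOC107927185) and KIS13A1 (also CMK1, LOC107888930). They are 5 of the 520 genes that the platform annotation pairs with a probe set of their own, and they were chosen by name, each through the probe set that lists that gene and no other. In the RefSeq annotation of assembly Gossypium_hirsutum_v2.1 they lie on chromosomes D02, A08, D08, D11 and A09, in the order given. Each gene had 1 probe set, and the suffixes (_s_at or _x_at) of all but that of KCH1 mark probes that can also bind related transcripts, so a tubulin value may include close copies in the other subgenome.

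Field-grown plants of the single cultivar Bikaneri Nerma were compared with and without drought on Affymetrix cotton arrays, with 3 biological replicates of each of 8 groups. Control and drought plants stood in 6 neighbouring plots each, and the droughted plots lost irrigation at peak flowering and were covered by a shelter when it rained. Drought plots were sampled when their soil moisture had reached 19.5%, which was 50% of that of the control plots, 18 to 19 days after irrigation stopped. Each arm gave bolls at 0 and 5 days post anthesis (dpa) and fibre-bearing ovules at 10 and 20 dpa; the collection note for 0 dpa also names leaf, and which plot each replicate came from was not given.

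Microtubules are hollow filaments built from alpha- and beta-tubulin pairs. In a cotton fibre, a single elongated cell of the seed coat, arrays of microtubules below the plasma membrane guide the enzymes that lay down cellulose. Kinesins are motor proteins on microtubules: KCH-type kinesins of plants carry a calponin homology domain through which they also bind actin filaments, and kinesin-13 proteins are known in several organisms for taking microtubules apart at their ends.

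The values are log2 signals that were set to a median of 0 per probe set within each stage, across its 6 arrays. A value of 0 therefore marks the middle of a stage, and neither the level of a gene nor its course through development within one arm can be read from them, nor whether the labelled tissue expressed its defining markers. Differences are drought minus control in log2 units, with the standard error (SE) from limma over n = 3 arrays per group, and a difference is called where the adjusted p, Benjamini-Hochberg over 23973 probe sets, was under 0.05. Calls were frequent on these arrays: limma called 44.2% of all probe sets at 0 dpa, 58.2% at 5 dpa, 60.3% at 10 dpa and 60.0% at 20 dpa.

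Some technical signals also differed between the arms. The mean of 36 poly-A spike probe sets, which report RNA added in known amount, was higher in drought arrays by 0.22, 1.26 and 1.10 at 0, 10 and 20 dpa and differed by −0.24 at 5 dpa. The 5′ minus 3′ gap, the mean of 5′ control probe sets minus that of 3′ ones, served as a measure of RNA integrity. It was higher in drought arrays by 0.66, 0.30, 0.36 and 1.17 at 0, 5, 10 and 20 dpa, so 5′ signal was relatively stronger there. Scaling on the spikes moves every drought effect of a stage by the same amount, and the calls and directions of members and other microtubule genes that it changes at a stage are given with them. The part of these signals in the results was not tested.

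Of the 5 genes, limma called 2 higher and 3 lower in drought at 0 dpa, where 21.4% of all probe sets were called higher and 22.9% lower. It called 4 lower at 5 dpa and 3 lower at 10 dpa, beside 33.4% and 31.8% of all probe sets. At 20 dpa it called 1 higher and 4 lower, beside 26.0% and 34.0%. The tubulins ATub3, BTub1 and BTub4 were called at all 4 stages, as were 19.3% of probe sets. BTub1 and BTub4 were called lower at all 4 stages, as were 4.93%. The plot of signals by stage shows every array.

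**Figure D1:**
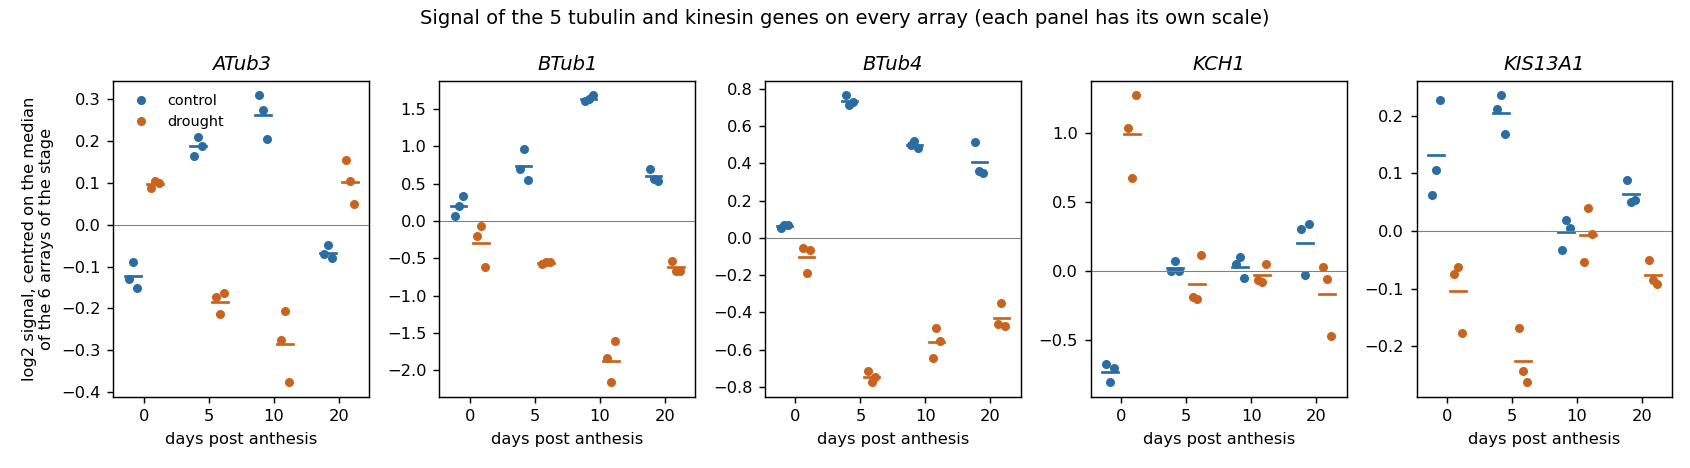
Log2 signal of each gene on every array, relative to the 6-array median of the stage, against days post anthesis; blue points are control arrays, orange points drought arrays, and short lines the means of 3 arrays. BTub1 at 10 dpa has the widest gap among the tubulins, with control arrays between 1.61 and 1.69 and drought arrays between −2.17 and −1.61, and KCH1 stands apart at 0 dpa.

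ATub3 codes for an alpha-tubulin, the subunit exposed at the minus end of a microtubule. Its drought difference was small at every stage and changed direction: it was above control at 0 dpa, below it at 5 and 10 dpa, and above it again at 20 dpa. At 0 dpa the control arrays read −0.13, −0.09 and −0.15 and the drought arrays 0.09, 0.10 and 0.10. At 5 dpa the control arrays read 0.16, 0.21 and 0.19 and the drought arrays −0.17, −0.21 and −0.16. The groups did not overlap at either stage, as was the case for 56.6% of probe sets at 0 dpa and 67.3% at 5 dpa. At 10 dpa the control arrays read 0.31, 0.28 and 0.21 and the drought arrays −0.28, −0.21 and −0.38. At 20 dpa the control arrays read −0.07, −0.05 and −0.08 and the drought arrays 0.15, 0.10 and 0.05. Here too every drought array lay outside the control range, as did those of 62.8% and 62.7% of probe sets at 10 and 20 dpa. The differences were 0.22 ± 0.05 (SE, n = 3; adjusted p = 0.000684) at 0 dpa and −0.37 ± 0.05 (adjusted p = 6.56e-07) at 5 dpa. They were −0.55 ± 0.05 (adjusted p = 1.33e-09) at 10 dpa and 0.17 ± 0.05 (adjusted p = 0.00365) at 20 dpa. None reached 2-fold, and at 10 dpa 18.5% of all probe sets fell further.

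The signs of ATub3 depended on how the arrays were scaled. On the spike controls the difference was 0.0012 at 0 dpa and −0.13 at 5 dpa, neither of them called, and at 20 dpa it turned to −0.93. With the gap between 5′ and 3′ probe sets as a covariate it was 0.12 at 0 dpa and −0.0013 at 20 dpa, and limma called neither. The lower signal at 10 dpa was called under each of these fits.

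BTub1 codes for a beta-tubulin, the subunit that binds and hydrolyses GTP as a microtubule grows. It was below control at every stage, and the gap was widest at 10 dpa, when fibres elongate. At 0 dpa the control arrays read 0.06, 0.20 and 0.33 and the drought arrays −0.20, −0.06 and −0.62. At 5 dpa the control arrays read 0.70, 0.97 and 0.55 and the drought arrays −0.58, −0.55 and −0.56. The drought arrays lay below all controls, though at 0 dpa the third replicate set most of the spread in drought. At 10 dpa the control arrays read 1.61, 1.63 and 1.69 and the drought arrays −1.84, −2.17 and −1.61. At 20 dpa the control arrays read 0.70, 0.56 and 0.53 and the drought arrays −0.53, −0.66 and −0.67. Neither stage had a drought array near a control array. The difference was −0.50 ± 0.13 (SE, n = 3; adjusted p = 0.00482) at 0 dpa and −1.31 ± 0.13 (adjusted p = 3.13e-08) at 5 dpa. It was −3.52 ± 0.13 at 10 dpa, an 11.4-fold lower signal (95% interval −3.79 to −3.24; adjusted p = 1.80e-15), and only 122 probe sets, 0.509% of those tested, fell further. At 20 dpa it was −1.22 ± 0.13, a 2.33-fold lower signal (adjusted p = 9.76e-08), and 4.78% of probe sets were called at least 2-fold lower at that stage.

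The difference of BTub1 at 5 and 10 dpa was called under every alternative run, between −1.40 and −1.19 at 5 dpa when 1 array was left out. At 0 and 20 dpa it was not called with the 5′ minus 3′ gap as a covariate: −0.21 (adjusted p = 0.632) and −0.71 (adjusted p = 0.221). The gap ran from −0.43 to −0.27 in control and from 0.31 to 0.34 in drought at 0 dpa. At 20 dpa it ran from −0.76 to −0.44 in control and from 0.45 to 0.67 in drought. Drought and the gap thus cannot be told apart at these stages.

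BTub4 is also a beta-tubulin, and its drought difference was largest at 5 dpa. At 0 dpa the control arrays read 0.05, 0.07 and 0.07 and the drought arrays −0.05, −0.19 and −0.07. At 5 dpa the control arrays read 0.77, 0.71 and 0.73 and the drought arrays −0.71, −0.78 and −0.75. The drought arrays of both stages lay below the controls, by a narrow margin at 0 dpa. At 10 dpa the control arrays read 0.50, 0.52 and 0.48 and the drought arrays −0.65, −0.48 and −0.55. At 20 dpa the control arrays read 0.51, 0.36 and 0.35 and the drought arrays −0.46, −0.35 and −0.48. The groups stood well apart at both. The difference was −0.17 ± 0.06 (SE, n = 3; adjusted p = 0.0187) at 0 dpa, and without drought replicate 2 of that stage it was −0.12 and no longer called (adjusted p = 0.110). It was −1.48 ± 0.06 at 5 dpa, 2.79-fold lower (adjusted p = 3.45e-15), with 357 probe sets (1.49%) further down. At 10 dpa it was −1.06 ± 0.06, 2.09-fold lower (adjusted p = 3.93e-13), and at 20 dpa −0.84 ± 0.06, 1.79-fold lower (adjusted p = 4.86e-11). A fall of 2-fold or more was called for 5.25% of probe sets at 5 dpa and 9.95% at 10 dpa, and both beta-tubulins were among them at each of these stages.

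KCH1 codes for a kinesin with a calponin homology domain, the type that links microtubules to actin filaments in cotton fibres. Its signal was far above control in droughted bolls at 0 dpa and close to control afterwards. At 0 dpa the control arrays read −0.67, −0.80 and −0.70 and the drought arrays 1.03, 0.67 and 1.27. All drought arrays lay above the controls, with more spread among them (SD 0.30, n = 3) than among the controls (SD 0.07). The difference was 1.72 ± 0.14 (SE, n = 3), a 3.28-fold higher signal (95% interval 1.43 to 2.00; adjusted p = 4.00e-09), and 158 probe sets (0.659%) rose further. A rise of 2-fold or more was called for 2.38% of probe sets at that stage.

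At the later stages the arrays of KCH1 overlapped. At 5 dpa the control arrays read −0.0001, 0.08 and 0.0001 and the drought arrays −0.19, −0.20 and 0.12. At 10 dpa the control arrays read 0.05, 0.10 and −0.05 and the drought arrays −0.06, −0.08 and 0.05. In both stages the third drought array lay within or above the controls. The differences were −0.12 ± 0.14 (95% interval −0.40 to 0.17; adjusted p = 0.502) and −0.06 ± 0.14 (95% interval −0.35 to 0.22; adjusted p = 0.718), so limma called neither. At 20 dpa the control arrays read 0.31, −0.03 and 0.34 and the drought arrays 0.03, −0.06 and −0.46. The second control array lay below the first drought array. The difference of −0.37 ± 0.14 (SE, n = 3) was called (adjusted p = 0.0245), but not without control replicate 1 (−0.32), control replicate 3 (−0.30) or drought replicate 3 (−0.22) of 20 dpa, nor from the 6 arrays of that stage alone (adjusted p = 0.0857). Array weights (−0.26) and the 5′ to 3′ covariate (−0.43, adjusted p = 0.535) also ended that call. On the spike controls the 10 dpa difference was −1.32 and was called.

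Of the measured markers of other tissues, some were called higher at 0 dpa and the rest were not called. G9, a polygalacturonase gene known from cotton pollen, was one of 2 pollen and anther markers with a probe set. Its control arrays read −3.95, −4.07 and −3.90 at 0 dpa and its drought arrays 3.90, 4.0 and 4.05. That is a difference of 7.95 ± 0.08 (SE, n = 3), the widest gap of any gene named here. The other marker, the pectate lyase gene Pel, read 0.25, −0.21 and 0.04 in control and −0.14, −0.04 and 0.24 in drought, a difference of −0.0074 ± 0.10 with overlapping arrays. RCA1, the only measured photosynthetic marker, was called higher by 0.37 ± 0.13 at 0 dpa (limma adjusted p = 0.0293). None of the 3 seed storage genes was called there. Because levels cannot be read from these values, a marker without a call may not have been expressed in either arm. The part of other tissues in the signal of KCH1 was not tested, and in whole bolls a different number of cells of a type and a different amount of RNA per cell cannot be told apart.

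KIS13A1 codes for a kinesin-13. Its signal was lower in drought at 0 and 5 dpa by small amounts, and the arms coincided at 10 dpa. At 0 dpa the control arrays read 0.06, 0.11 and 0.23 and the drought arrays −0.07, −0.06 and −0.18. At 5 dpa the control arrays read 0.21, 0.24 and 0.17 and the drought arrays −0.17, −0.24 and −0.26. The groups did not overlap. At 10 dpa the control arrays read −0.03, 0.02 and 0.01 and the drought arrays −0.05, 0.04 and −0.01. At 20 dpa the control arrays read 0.09, 0.05 and 0.05 and the drought arrays −0.05, −0.09 and −0.09. The arrays interleaved at 10 dpa and separated again at 20 dpa. The difference was −0.24 ± 0.05 (SE, n = 3; adjusted p = 0.000553) at 0 dpa and −0.43 ± 0.05 (adjusted p = 1.55e-07) at 5 dpa. At 10 dpa it was −0.0042 ± 0.05 (95% interval −0.11 to 0.10; adjusted p = 0.950). At 20 dpa it was −0.14 ± 0.05 (adjusted p = 0.0184), and this call was lost without control replicate 1 (−0.13) or drought replicate 3 (−0.13) of that stage. It also ended from the arrays of that stage alone (adjusted p = 0.0671), with the 5′ to 3′ covariate (−0.22) and with scaling on the array median (−0.09). Scaling on the spikes gave −0.19 at 5 dpa, not called, and −1.26 at 10 dpa, called.

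The 5 other microtubule genes with a probe set of their own showed that the direction at 20 dpa was shared by some tubulins and not by others. BTub3, another beta-tubulin, differed by 0.24, −1.05, −1.23 and 0.38 at 0, 5, 10 and 20 dpa (SE 0.04, each called as deposited). TubA2, an alpha-tubulin, differed by 0.30, −0.69, −0.58 and 0.31 (SE 0.05, each called as deposited). Both followed the order of signs of ATub3 and not that of BTub1 and BTub4, and at 20 dpa both turned with scaling on the spikes, to −0.71 and −0.78. At 0 dpa neither was called on the spikes, where BTub3 differed by 0.019 and TubA2 by 0.083. With the 5′ to 3′ covariate TubA2 lost its call at 0 dpa (0.25, adjusted p = 0.0554) and at 20 dpa (0.22, adjusted p = 0.306). The alpha-tubulin TUA10 had 3 probe sets that disagreed. The one of sense design differed by 0.04 (not called), −0.82, −0.27 and 0.22 (SE 0.05). The pair of antisense design differed by −0.12 (not called) and 0.41 (called higher) at 0 dpa. At 5 dpa this pair differed by −0.07 and −0.21, neither of them called. It differed by −2.0 and −2.02 at 10 dpa and by −0.99 and −1.01 at 20 dpa, all called lower. The direction of TUA10 at 20 dpa thus depended on the probe set and on the scaling, which gave −0.87 on the spikes, and the call of the sense probe set was lost there with the covariate (0.24, adjusted p = 0.336).

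Over the 6 tubulin genes, limma called 3 higher and 2 lower at 0 dpa, beside 21.4% and 22.9% of all probe sets, and none of those 3 was called on the spike controls. It called all 6 lower at 5 dpa and all 6 lower at 10 dpa, beside 33.4% and 31.8%, and on the spike controls ATub3 was not called at 5 dpa. At 20 dpa it called 4 higher and 2 lower, beside 26.0% and 34.0%, and the 4 that were higher turned lower on the spike controls. For TUA10 these counts use the sense probe set. Its antisense pair was not called at 5 dpa and was called lower at 20 dpa. The median difference of the 6 tubulins was 0.13, −0.94, −0.82 and 0.20 at 0, 5, 10 and 20 dpa, beside 0.0070, −0.05, −0.02 and −0.07 over all probe sets. The kinesin kch2 differed by 0.38 ± 0.13 at 0 dpa (adjusted p = 0.0231) and by −0.55 ± 0.13 at 10 dpa (adjusted p = 0.000914), whereas −0.22 at 5 dpa and −0.21 at 20 dpa were not called. The 0 dpa call of kch2 was lost without control replicate 2 (0.38) or 3 (0.25) or drought replicate 2 (0.38) or 3 (0.35), on the spike controls (0.16) and with the covariate (0.40). On the spikes its 20 dpa difference was −1.30 and was called. GhKTN1, a katanin subunit gene whose product severs microtubules, differed by −0.28, −0.57, −0.21 and −0.13 (SE 0.07), the last of them not called. Its 10 dpa call was lost without drought replicate 2 (−0.13), from the arrays of that stage alone (adjusted p = 0.0783) and with the covariate (−0.11). The covariate also ended its 0 dpa call (−0.099), and spike scaling ended that at 5 dpa (−0.33) and brought one at 20 dpa (−1.22). The plot of drought effects by stage places these genes beside the members.

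**Figure D2:**
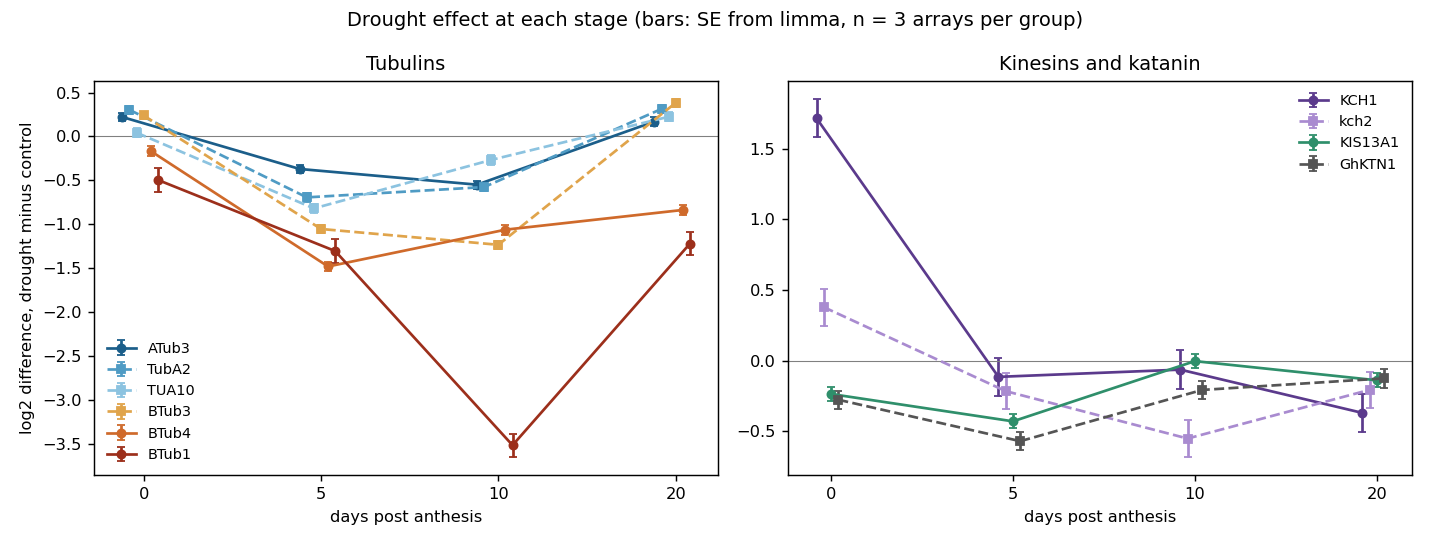
Log2 difference, drought minus control, against days post anthesis for tubulins (left) and for kinesins and katanin (right); bars are the SE from limma with 3 arrays per group, solid lines mark the 5 genes and dashed lines the other microtubule genes. BTub1 and BTub4 stay below 0 at all stages, whereas ATub3, TubA2, BTub3 and TUA10 lie above 0 at 20 dpa (below 0 when scaled on the spike controls), and KCH1 starts at 1.72 and ends at −0.37.

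Genes of the actin cytoskeleton, of wall growth and of fibre identity were counted beside the tubulins, at stages where limma called 22.9%, 33.4%, 31.8% and 34.0% of all probe sets lower and 21.4%, 24.8%, 28.5% and 26.0% higher (0, 5, 10 and 20 dpa). Of 5 actin cytoskeleton genes, limma called 3, 5, 3 and 3 lower at 0, 5, 10 and 20 dpa and none higher, with median differences of −0.16, −0.40, −0.71 and −0.34. Of 4 expansin genes, whose products loosen walls, it called 1 higher at 0 dpa, all 4 lower at 5 and at 10 dpa, and 3 lower and 1 higher at 20 dpa, with medians of 0.24, −1.09, −2.72 and −0.83. At 0 dpa probe sets of the same gene disagreed. EXP, the gene called higher (0.25), had others at −0.52 (called lower) and −0.18 (not called). EXPA3D, not called there (0.23), had another at 0.54 (called higher). The medians over all probe sets are those given for the tubulins. Of the 2 cellulose synthesis genes, the cellulose synthase gene CelA1 differed by −3.06 ± 0.11 at 10 dpa and the chitinase-like gene CTL1 by 1.18 ± 0.08 in the other direction, both called. Of 6 fibre markers, limma called 1 lower at 0 dpa, 4 lower and 1 higher at 5 dpa, 4 lower at 10 dpa and 6 lower at 20 dpa. EXP1 is counted both here and among the expansins. FSLTP2, the marker called higher at 5 dpa (0.56), had another probe set at −0.20 there, not called. That probe set was called lower at 0 (−0.65), 10 (−0.46) and 20 dpa (−0.91). How much of the tubulin differences goes with the fibre markers was not tested.

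The drought effect itself differed between stages for each gene over at least 1 interval, in a test that called 53.3% of all probe sets from 0 to 5 dpa, 46.6% from 5 to 10 dpa and 59.9% from 10 to 20 dpa. From 0 to 5 dpa it moved down in all 5 genes, beside 31.1% of probe sets called in that direction. The change was −0.59 ± 0.07 for ATub3, −0.81 ± 0.19 for BTub1, −1.31 ± 0.08 for BTub4 and −1.83 ± 0.19 for KCH1 (SE; adjusted p between 1.29e-11 and 0.00107). For KIS13A1 it was −0.19 ± 0.07 (adjusted p = 0.0234), a call that was lost in 6 of 12 fits with 1 array left out: without control replicates 1 (−0.16) and 2 (−0.18) or drought replicates 1 (−0.18) and 2 (−0.17) of 0 dpa, and without control replicate 2 (−0.18) or drought replicate 3 (−0.17) of 5 dpa. On the spike controls the changes of ATub3 (−0.13) and BTub1 (−0.35) were no longer called and that of KIS13A1 turned to 0.27, also not called.

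From 5 to 10 dpa the effects on the beta-tubulins moved in opposite directions. The effect on BTub1 moved further down by −2.21 ± 0.19 (adjusted p = 3.79e-09) while that on BTub4 moved up by 0.42 ± 0.08 (adjusted p = 0.000141), beside 23.1% of probe sets called down and 23.4% called up. KIS13A1 moved up by 0.43 ± 0.07 (adjusted p = 2.96e-05), and the change of KCH1 was 0.05 ± 0.19 (adjusted p = 0.860). The change of ATub3, −0.18 ± 0.07 (adjusted p = 0.0315), was lost in 7 of 12 fits with 1 array left out. These were the fits without control replicates 1 (−0.17) and 3 (−0.18) or drought replicates 1 (−0.17) and 3 (−0.17) of 5 dpa, and without control replicates 1 (−0.16) and 2 (−0.17) or drought replicate 3 (−0.13) of 10 dpa. On the spike controls BTub4 (−1.08) and KIS13A1 (−1.08) turned downward and KCH1 was called at −1.45.

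From 10 to 20 dpa the effects on the 3 tubulins moved up, beside 30.3% of probe sets called in that direction. The change was 2.30 ± 0.19 for BTub1 (adjusted p = 9.86e-10) and 0.72 ± 0.07 for ATub3 (adjusted p = 5.78e-09). For BTub4 it was 0.22 ± 0.08 (adjusted p = 0.0174), and it was lost without drought replicate 1 of 10 dpa (0.18) or drought replicate 2 of 20 dpa (0.19), on the spike controls (0.39, adjusted p = 0.131), and with the 5′ minus 3′ covariate (−0.0036). The changes of KCH1, −0.31 ± 0.19 (adjusted p = 0.183), and KIS13A1, −0.14 ± 0.07 (adjusted p = 0.0993), were not called.

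Scaling on the spikes or the array median moves all genes of an array by the same amount. The genes were therefore also compared with each other inside each array, which no such shift can change. A technical effect that differed between genes would remain. The 5′ minus 3′ gap differed between the arms at every stage and was not part of this comparison. Its part in these differences was not tested. The difference between 2 genes was taken on every array, and drought was set against control over all 4 stages by an exact two-sided permutation test within stages (160000 arrangements, smallest possible p 1.25e-05), adjusted over the 10 pairs. Averaged over stages, the drought effect on BTub1 was lower than that on ATub3 by 1.5 and that on BTub4 lower by 0.75 (adjusted exact p = 3.12e-05 for both, from the smallest p the test allows). The effect on BTub1 was also lower than that on BTub4, with a mean difference of −0.75 (adjusted exact p = 0.00754). That gap came mostly from 10 dpa, where it was −2.45, with values of −0.33, 0.18 and −0.38 at 0, 5 and 20 dpa.

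The kinesins differed from the beta-tubulins in the same test. The effects on both beta-tubulins were lower than that on KCH1, with mean differences of −1.93 for BTub1 and −1.18 for BTub4 (tubulin minus kinesin; adjusted exact p = 3.12e-05 for both). They were also lower than that on KIS13A1, by mean differences of −1.43 for BTub1 (adjusted exact p = 5e-05) and −0.68 for BTub4 (adjusted exact p = 0.000353). At 0 dpa the arms overlapped for both of these pairs, with −0.26 for BTub1 and 0.07 for BTub4, and the BTub1 difference was widest at 10 dpa (−3.51). The remaining means also joined stages of opposite sign. ATub3 minus KIS13A1 averaged 0.07 (adjusted exact p = 0.441) over 0.46, 0.06, −0.55 and 0.31 at 0, 5, 10 and 20 dpa, and only at 5 dpa did the arms overlap. ATub3 minus KCH1 averaged −0.42 (adjusted exact p = 0.0411) over −1.5, −0.26, −0.48 and 0.54. KCH1 minus KIS13A1 averaged 0.49 (adjusted exact p = 0.0518, not past the threshold) over 1.95, 0.31, −0.06 and −0.23. Within 1 stage, 3 arrays against 3 cannot give an exact p below 0.10.

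**Figure D3:**
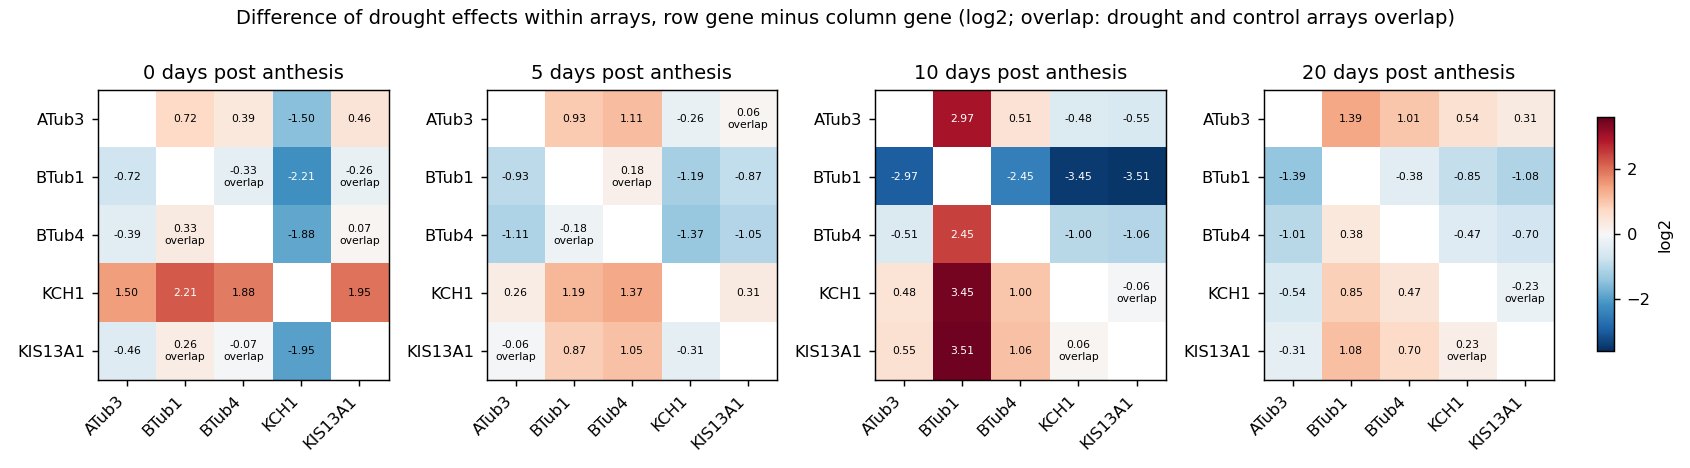
Differences between the drought effects of pairs of genes within arrays (row gene minus column gene, log2; red positive, blue negative), one panel for each stage; "overlap" marks pairs whose drought and control arrays overlapped. The column of KCH1 is low at 0 dpa, from −2.21 for BTub1 to −1.5 for ATub3, and the row of BTub1 is low at 10 dpa (−3.51 to −2.45).

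The genes most like each member over the 24 arrays were found among 242 named genes by Pearson's r, given as a description because the arrays share stages, treatment and centring. ATub3 was most like Ghfe1 (r = 0.97), BTub3 (r = 0.95) and TubA2 (r = 0.94). BTub1 was most like CPA-FAS-2, a cyclopropane fatty acid synthase gene (r = 0.98), ACBP, for an acyl-CoA-binding protein (r = 0.98), and PGIPL (r = 0.98), and CPA-FAS-2 also had its lowest value at 10 dpa (−3.02). BTub4 was most like myb109, a fibre MYB transcription factor gene (r = 0.99), FLA19, for a fasciclin-like arabinogalactan protein (r = 0.96), and ManA2 (r = 0.96). The differences of myb109 were −0.29, −1.87, −1.40 and −0.98 at 0, 5, 10 and 20 dpa, with the same order of sizes as BTub4. KCH1 was most like G9 (r = 0.92) and far less like the next genes, the alternative oxidase gene AOX1 and GhCASPL2A1 (both r = 0.51). KIS13A1 was most like GhKTN1 (r = 0.87), RPS4 (r = 0.87) and TPS1 (r = 0.86). Among the members, r was 0.83 for BTub1 with BTub4, 0.70 for ATub3 with BTub1 and −0.01 for KCH1 with BTub1.

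**Figure D4:**
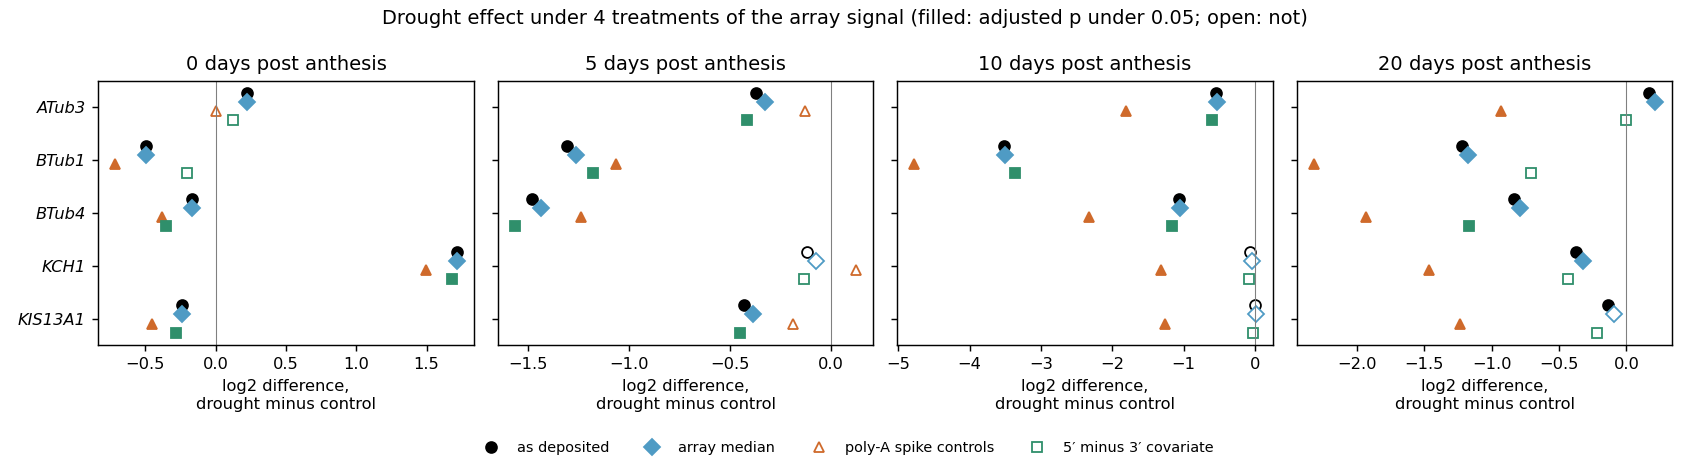
Log2 difference, drought minus control, of each gene at 4 stages with the arrays as deposited (black circles), scaled on the array median (blue diamonds) or the poly-A spike controls (orange triangles), or with the 5′ minus 3′ gap in the model (green squares); filled points were called by limma. Spike scaling moves all points of a stage by one amount, so that at 10 and 20 dpa all 5 genes lie below 0, and BTub1 and BTub4 are below 0 at every stage under all 4.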

How the data were processed

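The deposited values are log2 signals made with RMA, per the submitters' processing notes. Its version is not given there. In the deposited table the median of each probe set over the 6 arrays of a stage is 0 (largest departure 5e-07), a centring that no label states, so only differences within a stage were used. The table held 24132 probe sets on 24 arrays; 159 control probe sets were left out. Platform annotation gave 697 probe sets 1 gene, 46 several genes and 23230 none. Groups came from the sample titles.

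Drought was compared with control at 4 stages with limma 3.58.1 in R 4.3.3: 8 group means, 16 residual degrees of freedom, Benjamini-Hochberg over 23973 probe sets. The fit was tested on simulated data. The number of arrays limits the precision, and p-values measure the spread between the 3 replicates. Named were the members, the other tubulin, kinesin and microtubule associated genes, the 3 genes most correlated with each member, and up to 2 genes of other lists. TubA2 was added to the tubulins by name, since the list's name pattern missed it. Members and lists were chosen with earlier results of these data known. Alternatives changed the arrays in the fit, the scaling, the integrity covariate, array weights, eBayes, the probe set and single replicates. Same-numbered replicates correlated between −0.10 and 0.11, so no shared deviation showed, and the main fit used no pairing. Whether the samples were paired in the field cannot be read from these values. A planned comparison of protein sequences was not run.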

Additional observations from a re-analysis of the deposited data

Results flagged for a closer look

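The drought effect on 5 genes differed between stages by a test of the difference itself (limma, adjusted over 23973 probe sets), which marked 12 changes for a closer look. From 0 to 5 dpa all 5 genes changed: ATub3 by −0.59, BTub1 by −0.81, BTub4 by −1.31, KCH1 by −1.83 and KIS13A1 by −0.19. From 5 to 10 dpa 4 genes changed: ATub3 by −0.18, BTub1 by −2.21, BTub4 by 0.42 and KIS13A1 by 0.43. From 10 to 20 dpa the 3 tubulins changed: ATub3 by 0.72, BTub1 by 2.30 and BTub4 by 0.22. Changes were called for 53.3%, 46.6% and 59.9% of all probe sets over these intervals, so their number alone does not set the genes apart.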

How the results depend on the processing

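Some differences of members at a stage kept their direction and call under every alternative run. They were those of BTub1 and BTub4 at 5 and 10 dpa, BTub4 at 20 dpa, ATub3 at 10 dpa and KCH1 at 0 dpa. Under the alternatives run for changes between stages, some changes kept theirs too. They were those of BTub4 and KCH1 from 0 to 5 dpa, BTub1 from 5 to 10 and 10 to 20 dpa, and ATub3 from 10 to 20 dpa. Robust eBayes changed no call. From the arrays of the stage alone, KCH1 (−0.37) and KIS13A1 (−0.14) at 20 dpa were no longer called. Scaling on the array median ended KIS13A1 at 20 dpa (−0.095), and array weights ended KCH1 there (−0.26). The replicate block ended KIS13A1 at 20 dpa (−0.14; adjusted p = 0.0572), KIS13A1 from 0 to 5 dpa (−0.19; adjusted p = 0.0687) and ATub3 from 5 to 10 dpa (−0.18; adjusted p = 0.0595), and no other member's call; 2 of 12 same-numbered replicates correlated best with their own number.

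Scaling on the spike controls moved the counts of called probe sets from 10606 to 6578 at 0 dpa, 14445 to 22746 at 10 dpa, 14380 to 22579 at 20 dpa, and 11160 to 23097 for the change from 5 to 10 dpa. The share of calls that were higher went from 48.3% to 22.1% at 0 dpa, 42.6% to 69% at 5 dpa, 47.3% to 5.21% at 10 dpa and 43.3% to 4.51% at 20 dpa. It ended ATub3 at 0 (0.0012) and 5 dpa (−0.13), KIS13A1 at 5 dpa (−0.19), and the changes of ATub3 (−0.13) and BTub1 (−0.35) from 0 to 5 dpa and BTub4 from 10 to 20 dpa (0.39). It brought KCH1 (−1.32) and KIS13A1 (−1.26) at 10 dpa past the threshold. It reversed ATub3 (−0.93), TUA10 (−0.87), BTub3 (−0.71) and TubA2 (−0.78) at 20 dpa. It also turned the sign of the changes of KIS13A1 (0.27) and GhKTN1 (0.17) from 0 to 5 dpa, neither of them called. From 5 to 10 dpa it reversed the changes of BTub4 (−1.08), KCH1 (−1.45), KIS13A1 (−1.08), TUA10 (−0.95), TubA2 (−1.38) and GhKTN1 (−1.14), all called.

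With the 5′ minus 3′ covariate 3686 probe sets were called at 0 dpa and 4359 at 20 dpa. ATub3 (0.12) and BTub1 (−0.21) at 0 dpa, BTub1 (−0.71), KCH1 (−0.43) and KIS13A1 (−0.22) at 20 dpa and KIS13A1 from 0 to 5 dpa (−0.17) were no longer called. ATub3 at 20 dpa (−0.0013) and BTub4 from 10 to 20 dpa (−0.0036) also lost their call, with values that had crossed 0 only slightly. Lost too, as given with each gene, were TubA2 at 0 and 20 dpa, kch2 and GhKTN1 at 0 dpa, GhKTN1 at 10 dpa and TUA10 at 20 dpa. The mean of all probe sets reversed TUA10 at 20 dpa (−0.59).

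Spike scaling and covariate together, an alternative chosen after seeing the data, called 16020, 21705 and 3220 probe sets at 0, 10 and 20 dpa and 23325 for the change from 5 to 10 dpa. It turned the sign of BTub1 (0.34), BTub4 (0.19), KIS13A1 (0.27) and GhKTN1 (0.45) at 0 dpa, of which only GhKTN1 was called. At 5 dpa this fit turned the sign of ATub3 (0.17), KCH1 (0.45), KIS13A1 (0.14), kch2 (0.38) and GhKTN1 (0.094). Of these only KCH1 and kch2 were called. The sign of KIS13A1 at 20 dpa (0.037) also turned, with no call. The fit reversed the changes from 5 to 10 dpa of BTub4 (−1.03), KCH1 (−1.38), KIS13A1 (−1.0), TUA10 (−0.87), TubA2 (−1.31) and GhKTN1 (−1.04), all called. It also reversed that of KIS13A1 from 10 to 20 dpa (0.90), which was called. ATub3 (0.25), BTub1 (−0.46) and KCH1 (−0.18) at 20 dpa and KIS13A1 from 0 to 5 dpa (−0.13) lost the call, and KCH1 (−0.92) and KIS13A1 (−0.87) at 10 dpa gained it. The cause of these shifts was not tested.

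Some member results lost their call in part of the fits with 1 array left out. Their values over all such fits, those that kept the call included, had the following ranges. BTub4 at 0 dpa ran from −0.19 to −0.12. At 20 dpa KCH1 ran from −0.49 to −0.22 and KIS13A1 from −0.15 to −0.13. The change of KIS13A1 from 0 to 5 dpa ran from −0.24 to −0.16. That of ATub3 from 5 to 10 dpa ran from −0.22 to −0.13, and that of BTub4 from 10 to 20 dpa from 0.18 to 0.28.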
